A study of Mus musculus with 2 samples.

Results

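The genes described here encode enzymes that build and break down haem: Alas1, Alas2, Alad, Uros, Urod, Cpox, Ppox, Fech and Hmox1. They were chosen by name, and all 9 were found by Ensembl identifier among the 43346 mouse genes of the gene tables and, as 47 annotated transcripts, in the transcript tables. The libraries hold total RNA over 200 nt from kidneys of healthy B6NCrl mouse embryos aged 16.5 days, in 1 group of 2 biological replicates. Each replicate is a pool of male and female embryos, which numbered 41 for replicate 2. No allele, agent or second tissue is named in the labels, so the comparisons are between genes, between transcripts of a gene and between the pools. Both pools carry the same donor label, so their spread need not be that between unrelated animals. With 2 libraries no exact two-sided test over paired values can give a p under 0.5, and none was run.

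Haem is an iron-bearing ring that carries oxygen in haemoglobin and electrons in cytochromes. Its synthesis opens inside the mitochondrion, where 5-aminolevulinate synthase joins glycine to succinyl-CoA, passes through the cytosol and ends in the mitochondrion, where ferrochelatase inserts the iron. Alas1 encodes the synthase of most tissues and is repressed by haem. Alas2, on the X chromosome, encodes the red cell form, whose translation follows iron supply. Heme oxygenases open the ring and release iron, carbon monoxide and biliverdin.

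All 9 genes reached 1 TPM (a level scaled to transcript length and to the library's total) in both libraries, and all 9 also reached 5 TPM. By comparison, 34.7% of all mouse genes and 62.2% of protein-coding genes reached 1 TPM in both. Mean levels ran from 23.6 to 91.7 TPM with a median of 59.9, whereas protein-coding genes detected in both libraries had a median of 20.8 TPM. Expected counts per member ran from 902 to 3487, out of 34261328 counts on mouse genes in replicate 1 and 37900132 in replicate 2. Because these are whole kidneys, fewer cells of a type and less RNA per cell cannot be told apart.

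The synthase of most tissues and the red cell synthase were present at nearly the same level. Alas1 (chr9:106233455-106248654, minus strand, mm10) stood at 57.3 TPM in replicate 1 and 65.4 TPM in replicate 2, with deposited bounds of 54.0 to 61.4 and 62.2 to 69.5. Alas2 (chrX:150547375-150570638, plus strand) stood at 62.7 and 69.0 TPM, with bounds of 58.4 to 64.9 and 64.7 to 71.1. The ratio of Alas2 to Alas1 was 1.09 in replicate 1 and 1.05 in replicate 2, or 0.10 ± 0.04 (SD, n = 2) on the log2 scale. Dividing the bounds of one gene by the opposite bounds of the other gave ranges of 0.95 to 1.20 and 0.93 to 1.14, so the genes did not differ beyond the uncertainty of the estimates. Their means were 61.4 ± 5.73 and 65.9 ± 4.45 TPM (SD, n = 2), a gap smaller than the SD of Alas1 and about equal to that of Alas2.

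**Figure D1:**
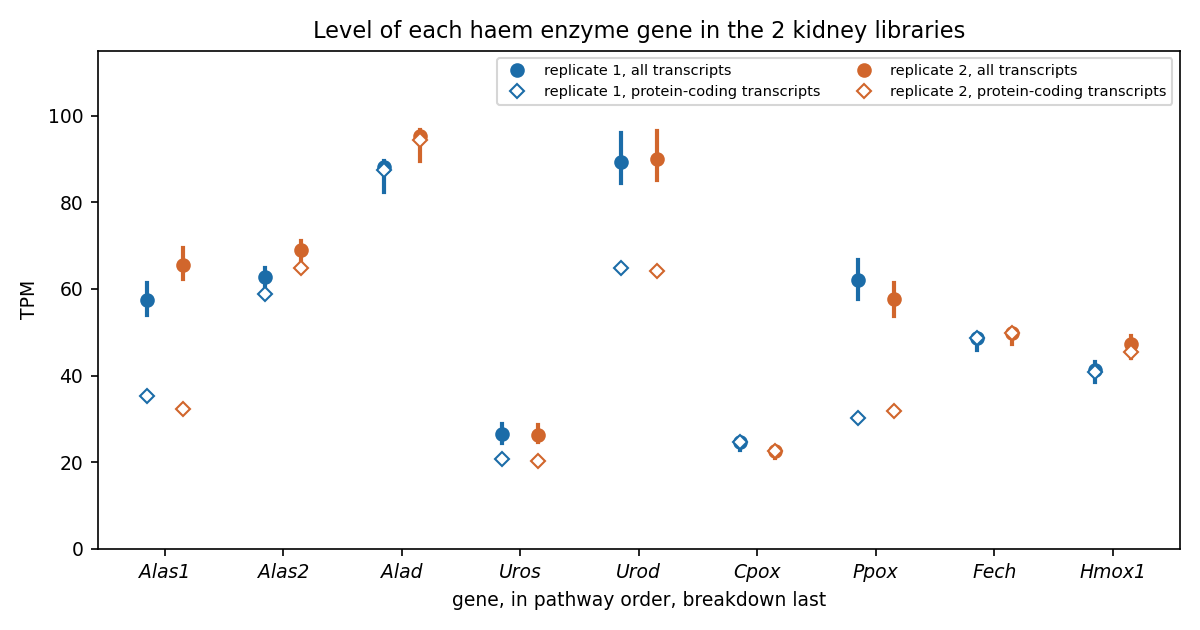
Level in TPM of the 9 haem enzyme genes in replicate 1 (blue) and replicate 2 (orange). Filled circles give the whole gene, vertical lines its deposited bounds, and open diamonds the sum over transcripts annotated as protein-coding; Alas1, Urod, Ppox and Uros have diamonds well below their circles.

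That near equality held for whole genes and not for sums over transcripts annotated as protein-coding, which rest on an estimated division of reads. Summed over transcripts annotated as protein-coding, Alas1 fell to 35.2 TPM in replicate 1 and 32.3 TPM in replicate 2, which is 61.4% and 49.3% of the gene. The same sum for Alas2 was 58.9 and 64.9 TPM, or 93.9% and 94.0% of the gene. On this basis the ratio of Alas2 to Alas1 was 1.67 and 2.01, a log2 difference of 0.87 ± 0.19 (SD, n = 2). Ranges from the deposited bounds were not computed for it. The ratio was above 1 in both libraries by either sum.

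Most of the non-coding part of Alas1 lay in 1 transcript, and its share differed between the pools. Alas1-201, which encodes the enzyme, held 49.8% of the gene in replicate 1 and 32.1% in replicate 2 (28.6 and 21.02 TPM, bounds 22.2 to 30.4 and 14.3 to 23.7). Alas1-206, annotated as a processed transcript without a coding sequence, held 26.2% and 41.0% (15.04 and 26.9 TPM, bounds 11.8 to 19.1 and 23.3 to 31.1). The bounds of Alas1-206 did not overlap between the pools, and those of Alas1-201 did. Those of the whole genes Alas1, Alad and Hmox1 did not overlap either. How often bounds fail to overlap over all genes or transcripts was not computed, and they leave out differences between embryos. Alas1-207, which is protein-coding, held 11.03% and 17.1% (6.32 and 11.2 TPM).

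Alas1 was the only member of the 7 with several transcripts whose leading transcript changed, from Alas1-201 in replicate 1 to Alas1-206 in replicate 2. Across all genes with at least 2 transcripts and a mean of at least 1 TPM, the leading transcript differed in 8.91%. Among those with at least 1000 counts in both libraries, a depth that Alas1 reached, it differed in 5.25%. The largest shift of an Alas1 transcript, 17.7 percentage points, was matched or passed by 2.05% of these deeper genes.

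The models of Alas1-201 and Alas1-206 differ at few places, which limits how firmly reads can be divided between them. In GENCODE M21 the 10 exons of Alas1-206 begin 4222 bases downstream of the start of Alas1-201, with a first exon of 80 bases, and leave out the 2 exons at the 5′ end of the 11 in Alas1-201. Of the rest, 7 exons are identical, and 1 begins 3 bases earlier in Alas1-206, making it 165 bases long in place of 162. Beyond these exons, what remains of each model is not identical either. The stretch around that junction is shown in transcript direction because it is 1 of the few places where the models part, with the 3 optional bases (chr9:106238237-106238239, minus strand, coding exon) in capitals.
Alas1 optional codon: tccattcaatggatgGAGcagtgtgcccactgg

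Sorted by this junction, the models with the 162-base exon (Alas1-201 alone) held 49.8% of Alas1 in replicate 1 and 32.1% in replicate 2. Those with the 165-base exon held 41.2% and 60.2%. Restricted to models whose length in the files equals that in M21, the second pair was 29.1% and 42.1%. The sum of the longer form was thus higher in replicate 2 by either count. How many reads crossed the junction or fell in the 80-base exon is not given in the tables.

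**Figure D2:**
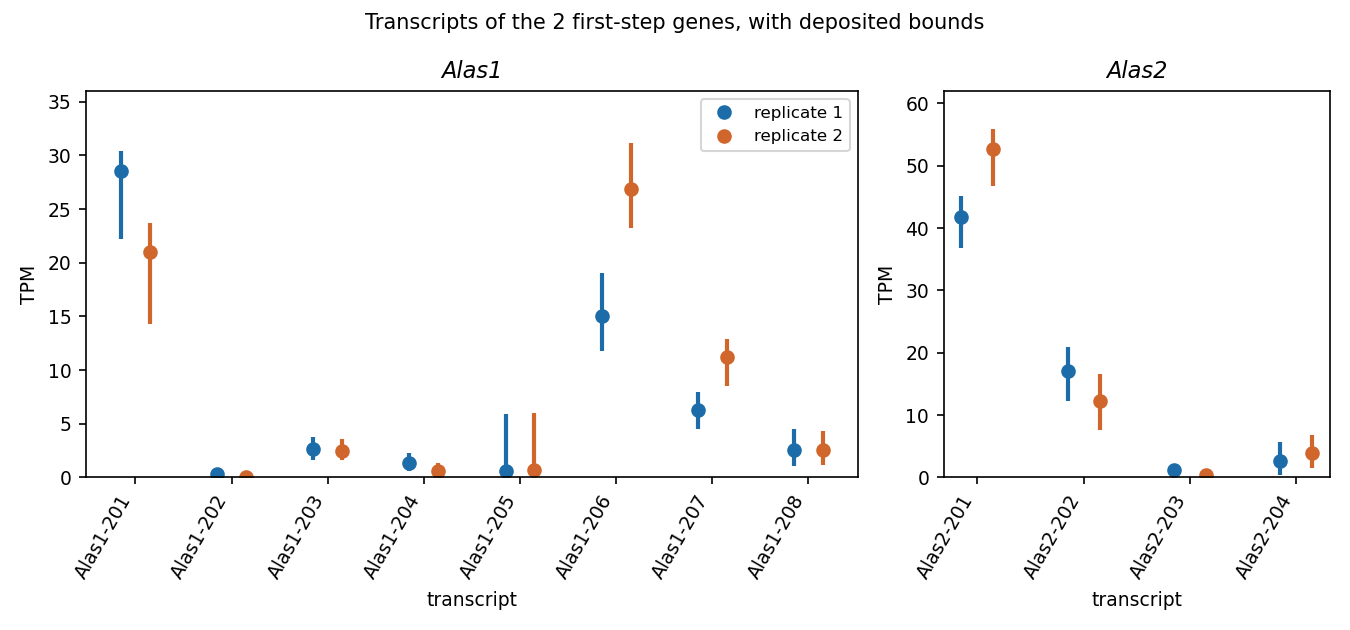
TPM of each annotated transcript of Alas1 (left) and Alas2 (right) in replicate 1 (blue) and replicate 2 (orange), with deposited bounds as vertical lines. Alas1-201 is the highest Alas1 transcript in replicate 1 and Alas1-206 the highest in replicate 2, while Alas2-201 leads in both.

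Alas2 came almost wholly from a pair of coding transcripts that share a start region. Alas2-201 held 66.7% of the gene in replicate 1 and 76.3% in replicate 2 (41.8 and 52.7 TPM, bounds 36.7 to 45.2 and 46.7 to 55.9). Alas2-202 held 27.2% and 17.7% (17.1 and 12.2 TPM, bounds 12.3 to 20.997 and 7.64 to 16.6). The bounds of Alas2-201 did not overlap between the pools, and those of Alas2-202 did, again with no share over all transcripts to set beside this. Starts within 100 bases of each other were counted as 1 start, and the start of these transcripts held 93.9% and 94.0% of Alas2.

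Both Alas2 models have 11 exons, start 84 bases apart and end 16 bases apart, and they differ inside the coding sequence. Exon 3 begins 45 bases later in Alas2-202, which leaves out 15 codons and keeps the reading frame. The skipped segment (chrX:150552959-150553003, plus strand, coding exon) is printed in capitals with 12 bases of the transcript on either side.
Alas2 optional segment: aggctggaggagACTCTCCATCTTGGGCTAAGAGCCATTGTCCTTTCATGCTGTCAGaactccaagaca

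Translation of Alas2 is known to be held back at low iron by proteins that bind a hairpin in its 5′ untranslated region, the iron-responsive element. A script searched the leading 200 bases of every protein-coding transcript for CAGTGN (N other than G) enclosed by 5 base pairs, G with T allowed, and preceded by an unpaired C. Of 21877 protein-coding genes in M21, 24 held such a hairpin (0.11%), and Alas2 was the only 1 of the 9 members among them. The 3 textbook examples searched, Fth1, Ftl1 and Slc40a1, were all found. In Alas2 the loop begins at base 96 of Alas2-201 and base 12 of Alas2-202, so both transcripts carry it. The end of exon 1 (chrX:150547458-150547485, plus strand) is printed with the loop in capitals.
Alas2 hairpin: ttggttcgtcctCAGTGCagggcaacag

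The stretch before the start of Alas2 is printed because GATA factors are known to act on this gene in red cells. AGATAA, a form of the site that GATA factors bind, was searched on both strands of RefSeq promoter windows (GRCm38.p6, a stretch around each annotated start). It was in 11.2% of 32851 windows. Among the 10 windows of the 7 members found in that table, 2 held it, those of Alas2 and Cpox, and neither Alas1 window did. Most of the 32851 windows lack it, so its absence does not set Alas1 apart. The 120 bases that end at the base before the M21 start (chrX:150547255-150547374, plus strand) have the match in capitals, on the opposite strand.
Alas2 promoter: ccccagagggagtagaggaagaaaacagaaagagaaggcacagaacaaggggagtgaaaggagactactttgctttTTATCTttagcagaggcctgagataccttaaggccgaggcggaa

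Globin messages were far above Alas2, and Klf1, named after its values were seen, was far below it. Hba-a2 stood at 9401 and 8790 TPM and Hbb-bs at 5052 and 4882 TPM in the 2 libraries. Klf1, the erythroid transcription factor, stood at 2.31 and 2.04 TPM. Lowest of the red cell genes listed were Gata1, at 0.47 and 0.58 TPM, and Trim58, at 0.08 and 0.04 TPM. The median over the red cell list was 3.29 TPM. Of 15 red cell genes listed, 10 reached 1 TPM in both libraries, as did 62.2% of all protein-coding genes. Of the 15, 11 were lower in replicate 2, as were 7690 of the 15363 genes compared between the pools. Alas2 was slightly higher in replicate 2. The whole span of Alas2, 23264 bases, lies within that of Apex2, a DNA repair gene on the opposite strand that stood at 20.0 and 19.8 TPM. The last exon of Alas2-201, 311 bases of its 2037, lies within exons of Apex2. Whether the authors' counting used strand is not stated, and reads in that exon cannot be assigned with certainty. The part of unspliced Apex2 RNA in the rest of Alas2 was not tested.

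The cytosolic steps comprised the highest member and 1 of the lowest. Alad (chr4:62509169-62519918), whose enzyme joins aminolevulinate molecules into porphobilinogen, stood at 88.1 TPM in replicate 1 and 95.2 TPM in replicate 2. Urod (chr4:116989965-116994413), which removes carboxyl groups from uroporphyrinogen, stood at 89.3 and 89.97 TPM. These genes changed places between the libraries and were not apart. Uros (chr7:133686243-133710072), which closes the ring, stood at 26.5 and 26.3 TPM, below both in each library.

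Of the last steps in the mitochondrion, Ppox and Fech lay above Cpox. Cpox (chr16:58670292-58717636), which makes protoporphyrinogen, was the lowest member in both libraries at 24.6 and 22.6 TPM. Ppox (chr1:171275990-171281186), which oxidises protoporphyrinogen to protoporphyrin, stood at 62.1 and 57.8 TPM. Fech, the ferrochelatase gene, stood at 48.8 and 49.9 TPM. Each gene differed less between the libraries than from the other members of this group.

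Set beside the sum of Alas1 and Alas2, each of the 6 later synthesis genes listed here was lower, though Alad and Urod lay above either gene alone. The log2 ratio to that sum was -0.47 ± 0.04 for Alad, -0.50 ± 0.11 for Urod, -1.09 ± 0.19 for Ppox and -1.36 ± 0.09 for Fech (SD, n = 2). Uros had -2.27 ± 0.13 and Cpox -2.43 ± 0.20. Each ratio was below 0 in both libraries. With coding transcripts alone the mean ratio stayed below 0 for all 6, at -0.07 for Alad, -0.57 for Urod, -1.63 for Ppox, -0.95 for Fech, -2.22 for Uros and -2.02 for Cpox. In the order of mean TPM the members ran Alad, Urod, Alas2, Alas1, Ppox, Fech, Hmox1, Uros and Cpox. Neighbours were held apart where both libraries gave the same order and the gap exceeded each gene's SD. By that rule Alad and Urod, Alas2 and Alas1, and Alas1 and Ppox were not apart, and the other 5 neighbouring pairs were. The rule does not use the deposited bounds. Those of Fech and Hmox1 overlapped in replicate 2 (47.2 to 50.4 and 44.2 to 49.2). Those of Uros and Cpox overlapped in replicate 1 (24.5 to 28.9 and 22.9 to 25.2).

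The later genes differed in how much of their RNA was assigned to coding transcripts. Alad was at 99.2% and 99.1% protein-coding, led by Alad-201, and Cpox and Fech have 1 annotated transcript each in the files. Ppox was split: 48.7% of its TPM in replicate 1 and 55.0% in replicate 2 was Ppox-201, its coding transcript, and 51.3% and 44.5% was assigned to transcripts annotated with retained introns. Ppox-207, in which 5 introns of Ppox-201 lie inside exons, held 24.0% and 25.9% (14.9 and 14.98 TPM, bounds 12.4 to 15.3 and 13.2 to 15.4). Ppox-202 held 20.3% and 12.4%. Ppox-207 shares 791 of its 4411 bases with exons of B4galt3, a gene on the opposite strand at 80.7 and 77.1 TPM, whereas Ppox-201 and Ppox-202 share none.

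Urod and Uros had smaller retained-intron shares that were close in the 2 libraries. For Urod these were 25.8% and 28.0%, against 72.6% and 71.3% for coding transcripts, chiefly Urod-201 with 69.1% and 68.3%. For Uros they were 21.5% and 22.6%, held by Uros-206 alone (5.70 and 5.94 TPM). The coding part of Uros was divided among several models, led by Uros-204 with 31.6% and 37.0% and followed by Uros-203 with 20.2% and 15.8%. Transcripts whose starts lay within 100 bases of the next held 78.6% and 81.5% of Uros, and with starts grouped within 20 bases the largest share was 31.6% and 37.1%. Total RNA libraries also hold unspliced and partly spliced RNA, and the part of such RNA in these shares was not tested.

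**Figure D3:**
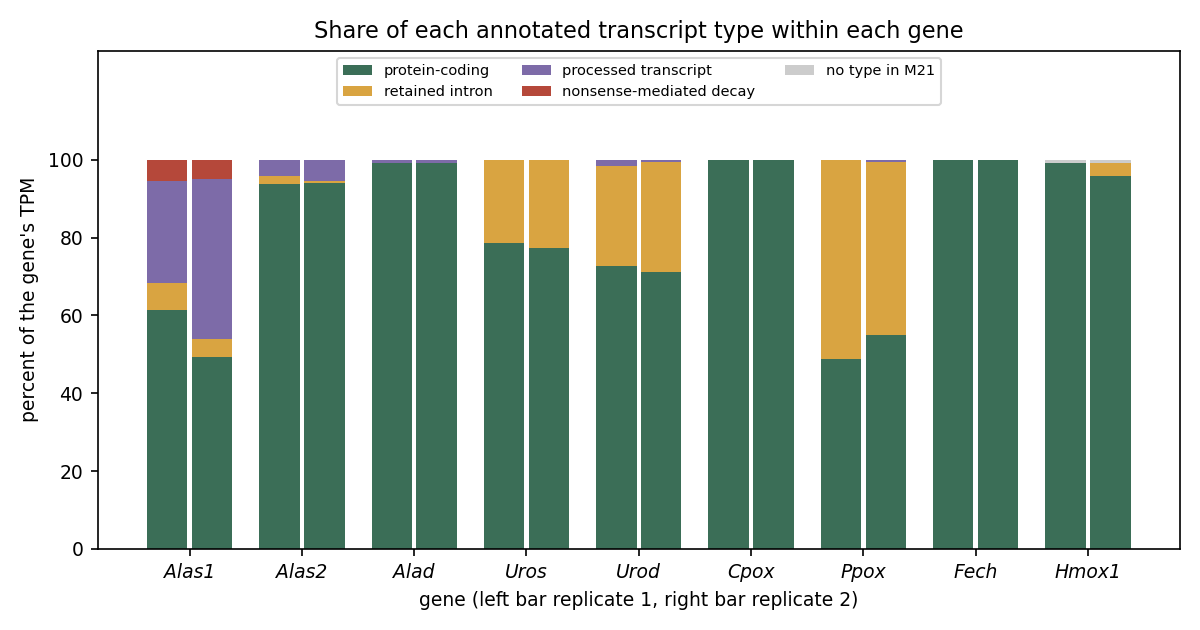
Percent of each gene's TPM assigned to transcripts of each annotated type, with replicate 1 as the left and replicate 2 as the right bar of a pair. Alad, Cpox and Fech are almost wholly protein-coding in both, Ppox is near an even split with retained-intron transcripts, and the processed transcript of Alas1 grows from 26.2% to 41.0%.

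Hmox1, the inducible heme oxygenase, was lower than Hmox2, the constitutive one. Hmox1 (chr8:75093621-75100589) stood at 41.2 TPM in replicate 1 and 47.3 TPM in replicate 2, and 99.2% and 95.9% of it was its coding transcript Hmox1-201. Hmox2 stood at 95.8 and 100.01 TPM. The ratio of Hmox2 to Hmox1 was 2.32 and 2.11, with ranges from the deposited bounds of 2.10 to 2.55 and 1.92 to 2.32, so the genes were apart in each library. The biliverdin reductases, which act on the product of the oxygenases, stood at 38.8 and 43.2 TPM for Blvra and 41.8 and 41.4 TPM for Blvrb. Macrophages that clear red cells are a known source of Hmox1. Of 13 macrophage genes listed, 9 reached 1 TPM in both libraries, a rule that 62.2% of all protein-coding genes met. The TPM of the 13 summed to 187 and 190, and Vsig4 was listed at 0 and 0.03 TPM. Most of the sum came from Slc40a1, the iron exporter, at 92.8 and 93.1 TPM, which other cells also express, C1qb at 36.3 and 33.7 TPM and C1qa at 18.0 and 22.1 TPM. The part of macrophages in Hmox1 was not tested.

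No member differed by 2-fold between the pools. The log2 ratios of replicate 2 over replicate 1, from counts scaled with TMM (a scaling that centres the bulk of genes), ran from -0.13 for Cpox to 0.21 for Alas1, with a median of 0.03. Over all 15363 genes averaging 1 CPM or more (counts scaled to library size), 2.35% were over 2-fold apart in either direction and the median ratio was 0.00. A single log2 ratio of these libraries has an SD of 0.26 at the coefficient of variation of 0.126 that edgeR estimated over all genes, so each of the 9 members moved by less than that. The 3 members with the highest ratios were Alas1 (0.21), Hmox1 (0.16) and Alas2 (0.14), and Alad (0.10) was next. Scaled to spike-in totals instead, the median of all genes was 0.43 and the members ran from 0.30 to 0.64 as all genes shifted together. Cpox, Ppox and Urod had count ratios whose sign differed between scalings. The other 6 members had count ratios above 0 under each of the 4 scalings tried. For Uros and Fech these were as small as 0.01 with library size, and by TPM Uros was slightly lower in replicate 2 (26.54 and 26.26).

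Marker genes of other cell types are given beside the Alas1 ratio, and none of those below was over 2-fold apart between the pools. Of all 15363 genes averaging 1 CPM or more, 7673 were higher in replicate 2. Among 8 genes of the adrenal cortex, whose cells use haem in steroid-making cytochromes, 7 were higher in replicate 2 and Mc2r was lower (-0.54). Their median log2 ratio was 0.65 and their TPM summed to 196 and 256, of which Fdx1 held 93.05 and 100.06. Cyp11a1, the cholesterol side-chain cleavage enzyme, stood at 20.6 and 38.5 TPM. All 8 liver genes were higher in replicate 2 (median 0.41, sums of 169 and 211 TPM, of which Afp held 96.7 and 114). So were all 8 proximal tubule genes (median 0.20, sums of 469 and 555 TPM). Of 8 nephron progenitor genes 6 were lower (median -0.20, sums of 324 and 295 TPM). Their part in the Alas1 ratio was not tested.

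**Figure D4:**
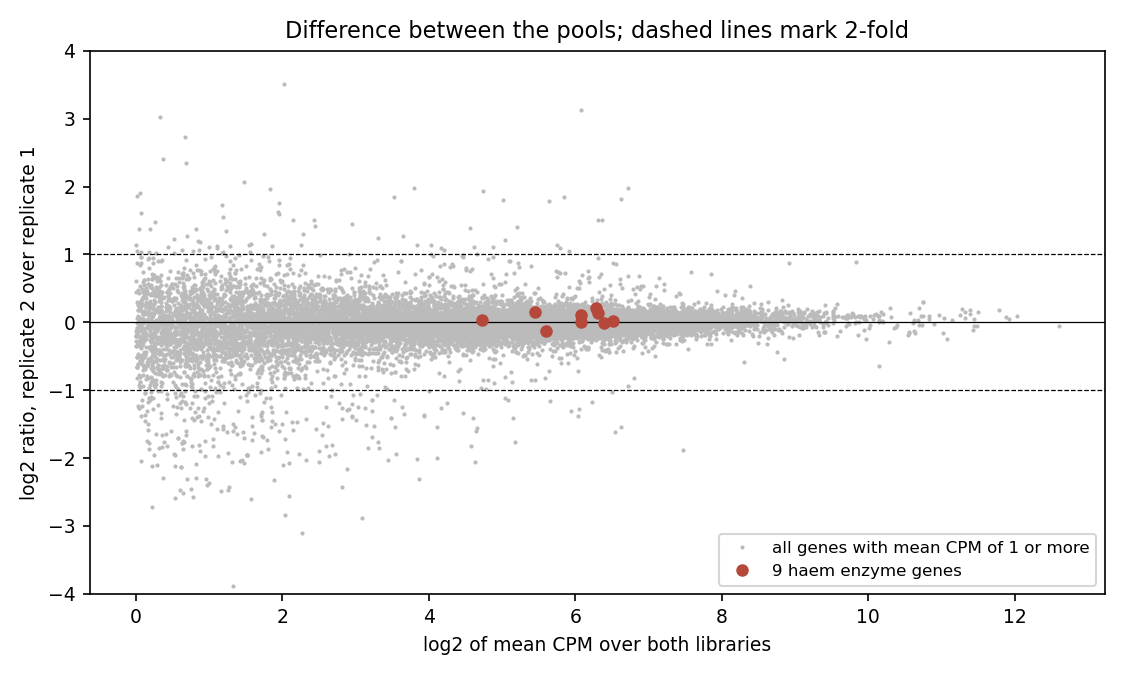
Log2 ratio of replicate 2 over replicate 1 against log2 mean CPM for all genes averaging 1 CPM or more (grey) and the 9 haem enzyme genes (red); dashed lines mark 2-fold and 14 genes lie beyond the vertical axis. The members sit between -0.13 and 0.21.

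Other genes of the haem route were transcribed as well. Of 38 listed for transport, cofactors, breakdown and control, 37 reached 1 TPM in both libraries, against 62.2% of all protein-coding genes. Their median was 30.4 TPM, and none was over 2-fold apart between the pools. The exception was Cd163, the scavenger receptor for haemoglobin, at 0.53 and 0.46 TPM. Among mitochondrial carriers, Tmem14c, needed for porphyrin movement in red cell precursors, led with 171 and 181 TPM. Slc25a38, the glycine importer that supplies the synthases, stood at 30.2 and 30.5 TPM and Abcb6 at 30.5 in both.

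The iron importers of the mitochondrion differed in level. Slc25a37, mitoferrin of red cells, stood at 16.1 and 14.3 TPM, and Slc25a28, mitoferrin of other tissues, at 9.23 and 9.24 TPM. Their ratio was 1.74 and 1.54, with ranges from the bounds of 1.495 to 2.11 and 1.33 to 1.87. Abcb10, which stabilises the red cell mitoferrin, stood at 13.3 and 13.6 TPM.

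Of 8 genes of iron-sulphur assembly and enzyme support, all reached 1 TPM in both libraries, against 62.2% of all protein-coding genes. Pgrmc1, a haem-binding partner of ferrochelatase, was highest at 249 and 267 TPM, followed by Glrx5, the glutaredoxin of iron-sulphur assembly, at 168 and 160 TPM and the scaffold Iscu at 89.99 and 90.04 TPM. Clpx, whose unfoldase activates the synthase, stood at 45.7 and 47.6 TPM. The genes that turn haem into its cytochrome forms were lower: Cox10 stood at 23.7 and 25.6 TPM, Cox15 at 12.7 and 10.0 TPM and the cytochrome c haem lyase Hccs at 23.8 and 26.6 TPM.

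Haem carriers of the cell surface and of lysosomes spread over a wide range. Abcg2, a pump that exports porphyrins, stood at 84.1 and 90.6 TPM, and Slc48a1, which moves haem out of lysosomes, at 63.9 and 68.7 TPM. The plasma haem binder Hpx was near the threshold at 1.11 and 1.48 TPM.

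**Figure D5:**
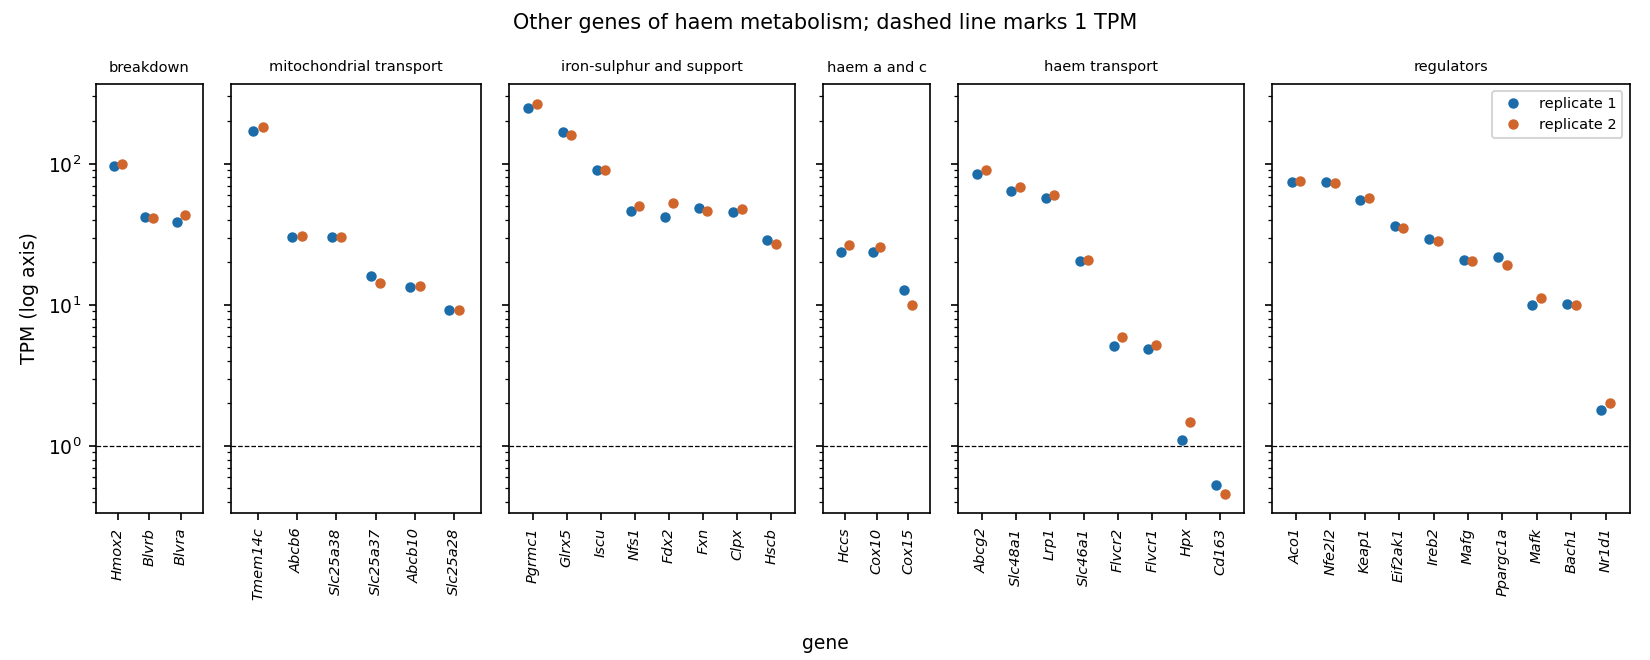
TPM on a log axis of 38 other genes of haem metabolism in replicate 1 (blue) and replicate 2 (orange), grouped by role; the dashed line marks 1 TPM. Cd163 alone lies below the line, and Pgrmc1, Tmem14c and Glrx5 are the highest.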

How the data were processed

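Total RNA libraries of embryonic kidney were made from 10 ng RNA each, per the labels. The authors deposited expected counts (estimated counts that need not be whole), TPM, posterior mean TPM, FPKM, the percent of each transcript in its gene, and TPM bounds, here handled as signal values. Per the deposited text notes, the build is mm10 and the annotation M4; aligner, quantifier, strand setting: not given in the sources used here. The deposited effective length, of no unit listed above, is a length in bases. Names, types and coordinates came from GENCODE M21 by stable identifier: 46 of 47 member transcripts matched, 40 with the same length (none of those of Cpox, Fech and Hmox1, and not Alas1-205 or Alas1-207), so structures hold only as far as M4 and M21 agree.

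Counts were rounded, then scaled by TMM (edgeR 4.0.16 under R 4.3.3) with a prior count of 2. On simulated counts, 100% of 100 genes changed 4-fold, 11% of 100 changed 1.5-fold and 0.33% of 15163 unchanged genes exceeded 2-fold. The simulation gave every gene the same spread, whereas 2.35% of genes in these libraries exceeded 2-fold, so it checks the computation only. DESeq2 1.42.0 size factors served as an alternative. Tables used Python 3.11.15, pandas 2.3.3, numpy 2.4.6 and matplotlib 3.10.9. Spike-ins took 2.82% and 2.08% of counts and stayed out of library sizes. The bounds cover the division and sampling of reads, not differences between embryos.

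Members, 106 list genes (all matched, Fdx2 as Fdx1l) and tests were chosen with earlier results of these data known. Genes named were drawn from all members, all genes of the lists for breakdown, mitochondrial transport and haem a and c, and up to 4 highest and 2 lowest of other lists. Klf1 and Ireb2 fall outside this rule and were added after their values were seen. Some genes that the rule or the lists took were removed after their values had been seen, so counts over lists leave them out, and they are not reported here.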

Additional observations from a re-analysis of the deposited data

How the results depend on the processing

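The log2 ratio of Alas2 to Alas1, 0.10 with whole genes, was 0.87 with protein-coding transcripts only, 0.07 with posterior mean TPM, 0.10 with a pseudocount of 1 TPM, and 0.08 to 0.13 when 1 library was left out; the larger value follows from leaving out the non-coding transcripts of Alas1. The median level of the members was 38.8 in FPKM, which has another scale, and 57.3 to 57.8 TPM in a single library, against 59.9 over both. Without a filter on low counts 2522 genes were over 2-fold between the pools in place of 361, as low-count genes enter. All 9 members kept a ratio under 2-fold under every scaling. Scaling to spike-in totals moved the median of all genes by 0.43 and that of the members to 0.46, so all 9 were then higher in replicate 2, Cpox included; with library size 6 were. The other alternatives for the counts detected, the median of the later steps, Hmox1 against Hmox2, the number of members with most of their TPM from 1 start (8, or 7 without Uros when starts within 20 bases were grouped) and lists stayed within 1 SD or 1.5 times of the value given. Among values of single genes and transcripts, 26 moved by more than that and 80 did not. Where the value given is a mean over 2 libraries, either library alone always lies within 1 SD of it. Leaving 1 library out was thus no check on such values, and those entries among the 80 carry no information. No paired analysis was possible because there is only 1 group. A difference in leading transcript has no value with 1 library left out. Restricting Alas1 models to those of equal length in M21, chosen after the data were seen, changed the gain of the 165-base exon from 19.0 to 13.0 percentage points. Transcript shares rest on read division and are less certain than gene levels.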

Other observations

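Genes that control haem enzymes were also transcribed. Of 10 regulators listed, all reached 1 TPM in both libraries, against 62.2% of all protein-coding genes. The median over them was 24.6 TPM. Nfe2l2, which activates Hmox1 under oxidative stress, stood at 74.3 and 73.6 TPM and its inhibitor Keap1 at 55.1 and 57.0 TPM. Bach1, the haem-sensing repressor of Hmox1, was lower at 10.2 and 10.1 TPM. Aco1, an iron-regulated protein that binds the hairpin class found in Alas2, stood at 74.6 and 75.6 TPM and its partner Ireb2 at 29.3 and 28.2 TPM. Eif2ak1, the kinase that slows globin translation when haem is short, stood at 36.2 and 34.8 TPM. Nr1d1, a haem-binding nuclear receptor, was lowest at 1.79 and 2.02 TPM.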
